A study of Homo sapiens with 12 samples.

Results

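The 10 genes described here are 4 cadherins (CDH1, CDH2, CDH6, CDH16), the adhesion molecule EPCAM, the intermediate filament gene VIM and the transcription factors SNAI1, SNAI2, ZEB1 and TWIST1, which are used to follow epithelial-mesenchymal transition (EMT). They were chosen by name, as all probes of the array that carry one of these 10 gene names and are not control spots, which gave 14 of 34127 probes and 10 of 25992 gene names. RNA came from HPTC, human cells of the proximal tubule, of 2 lines. The HK-2 line was immortalized with papillomavirus genes, and the RPTEC/TERT1 line with telomerase. Both were grown to confluence, starved of serum and supplements and then kept for 24 h without a ligand (control), with the pro-inflammatory cytokine IL-1β at 10 ng/mL or with the SGLT2 inhibitor empagliflozin (Empa) at 500 nM. Each line and treatment was measured on 2 one-color arrays, so the 12 arrays form 6 groups of 2, and 4 slides each hold the control, IL-1β and Empa array of 1 line and replicate number. The study calls them biological duplicates, and their number limits the precision of every value below.

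Cadherins are calcium-dependent adhesion proteins that join neighbouring cells and bind catenins inside the cell. CDH1 (E-cadherin) is the cadherin of most epithelia, whereas the human proximal tubule is known for CDH2 (N-cadherin) and CDH6 (K-cadherin). CDH16 (Ksp-cadherin) is a cadherin of kidney tubules. In EMT, epithelial cells lose E-cadherin and gain vimentin, and factors of the SNAI, ZEB and TWIST families bind E-boxes in epithelial promoters and repress CDH1.

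Levels are given on the log2 scale relative to the 75th percentile of the array's signals, so that 0 is the brightness of that percentile and a level of 1 is 2-fold brighter. Agilent's Feature Extraction software marks each spot as well above background or not, and a probe without that mark is called dim here. A dim level is only an upper bound, and a signal of 1 unit, the floor, corresponds to a level of -8.71. Levels of different probes are not comparable, so each gene is compared only with itself. In RNA of whole cultures, fewer expressing cells and less RNA per cell cannot be told apart.

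The lines were taken from the sample titles, and another label field names HK-2 for all arrays. The arrays did not group by these titles. Over the 15324 probes that were never dim, Pearson's r was 0.984 between the controls of RPTEC/TERT1 replicate 2 and HK-2 replicate 1 and 0.973 between those of RPTEC/TERT1 replicate 1 and HK-2 replicate 2, but only 0.88 and 0.875 between the controls that share a title. Of 14 proximal tubule markers, 7 were well above background in all 4 controls and 4, including HNF4A and CUBN, in none. The thick ascending limb transporter SLC12A1 was at 4.34 in the control of HK-2 replicate 1, at 4.99 in that of RPTEC/TERT1 replicate 2 and at the floor in the remaining controls, where the stromal genes DCN and LUM were at 1.65 to 2.69. DCN and LUM were dim in the controls that had SLC12A1. Of the other 6 stromal markers, COL1A2, COL3A1, PDGFRA, PDGFRB and THY1 were dim in all 4 controls, and COL1A1 ran the other way, at -2.84 and -3.07 in the controls that had SLC12A1 and at -4.41 and -4.61 in the remaining ones. The distal and collecting duct markers SLC12A3, CALB1, AQP2 and SCNN1G were dim in all 4 controls. Which cells a slide holds was not tested, and the levels are therefore given slide by slide, with differences taken only between arrays of the same slide.

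The probes on which the results turn are shown by the first 30 of their 60 bases, 5′ to 3′, because they fix which stretch of transcript each value reads. The positions are those of the array annotation on hg19, which does not state the exon or UTR.
CDH1, chr16:68869214-68869273, plus strand: aaatcaaccctgcaatcactttttggaatt
CDH16, chr16:66942042-66942101, minus strand: gggagtgctccaaatgtcagggtgtttgcc
CDH6, chr5:31324207-31324266, plus strand: gccaccacatgtatcacgggtcacttgaaa
CDH6, chr5:31250260-31250319, plus strand: atatggtttcataaccaaagagctcggcac
CDH2, chr18:25530936-25530995, minus strand: taccagaatataaatgatacacctctgacc
ZEB1, chr10:31818063-31818122, plus strand: catcatggtcattttctagttttttaccag
ZEB1, chr10:31816261-31816320, plus strand: atggaaacacagtaacctgtatgctgtgat
The 2 ZEB1 probes lie apart in the same gene and give separate readings of it. The CDH6 probe at chr5:31250260-31250319 was dim on all 12 arrays, so CDH6 rests on the probe at chr5:31324207-31324266.

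E-cadherin (CDH1) mRNA was bright on 2 slides and dim on the other 2, and on both slides where it could be measured it was below its control with IL-1β. In the order HK-2 replicate 1, HK-2 replicate 2, RPTEC/TERT1 replicate 1 and RPTEC/TERT1 replicate 2, which is kept in all lists below, the control levels were 2.81, -5.40, -5.72 and 2.98. The IL-1β levels were -0.54, -8.71, -8.71 and -0.93, and the Empa levels were 3.54, -5.95, -7.38 and 2.64. All 6 arrays on the slides of RPTEC/TERT1 replicate 1 and HK-2 replicate 2 were dim, and the other 6 were well above background. The control of HK-2 replicate 1 was at least 298-fold brighter than that of HK-2 replicate 2, and the control of RPTEC/TERT1 replicate 2 at least 414-fold brighter than that of RPTEC/TERT1 replicate 1. The slides that share a line title therefore did not share a CDH1 level.

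With IL-1β, CDH1 was at 0.098 of its control on the HK-2 replicate 1 slide and at 0.0668 on the RPTEC/TERT1 replicate 2 slide. These are the 2 slides on which it was measurable. CDH1 is spotted 10 times on the array, and the SD over the spots was between 0.04 and 0.1 (log2) on the 6 bright arrays and between 0.46 and 1.19 on the dim ones. The differences of -3.35 and -3.90 were thus far larger than the spread between spots, which is technical and says nothing about cultures. With Empa, CDH1 was at 1.65 and 0.792 of its control on these slides, in opposite directions. Because no titled group has CDH1 well above background on both of its arrays, the gene did not enter the fit across genes, which tested the other 9. Without the filter on dim probes, CDH1 was tested among 25622 genes in limma, and its mean IL-1β difference over the 4 slides, -3.39, in which the dim slides count at their dim values, had an adjusted p of 1 without a block, 0.055 with the slide as a block and 0.0112 with the slide as a block and 1 effect per treatment. Of these 25622 genes, 23, 277 and 1393 passed in the same fits.

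Ksp-cadherin (CDH16) was well above background everywhere, stood higher on the same 2 slides as CDH1, and was lower with IL-1β on all 4. Its control levels were 6.44, 1.5, 1.32 and 6.90. Its IL-1β levels were 5.52, -0.55, -0.81 and 5.70. The control of RPTEC/TERT1 replicate 2 was 47.9-fold brighter than that of RPTEC/TERT1 replicate 1, and the ranges of the 2 bright and the 2 dimmer slides did not overlap under any treatment. IL-1β left CDH16 at 0.527, 0.242, 0.229 and 0.434 of control, so the slides with the lower CDH16 level also showed the larger relative fall. With Empa it was at 0.949, 0.647, 0.684 and 0.573 of control, below 1 on each slide.

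EPCAM, an adhesion molecule of epithelia that is not a cadherin, differed less between slides and was also lower with IL-1β on all 4. Control levels were 5.31, 4.25, 4.14 and 5.43, with 2.44-fold between the highest and the lowest. With IL-1β the levels were 4.08, 3.63, 3.23 and 4.30, and with Empa 5.84, 4.06, 3.94 and 5.42. IL-1β left 0.424, 0.651, 0.53 and 0.457 of the control signal. The Empa arrays were at 1.44, 0.876, 0.871 and 0.994 of control, on both sides of 1.

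N-cadherin (CDH2) ran opposite to CDH1 and CDH16 across the slides and, by its brighter probe, stayed close to its control within each. Control levels were -2.04, 2.19, 2.52 and -1.82. IL-1β levels were -2.03, 2.68, 2.60 and -1.76, and Empa levels -1.76, 2.47, 2.46 and -1.71. The 2 slides on which CDH1 was dim had the higher CDH2, with 23.6-fold between the lowest and the highest control, and no treatment brought the 2 pairs of slides near each other. The second CDH2 probe at chr18:25532081-25532140 gave the same order, with controls at 0.10 and 0.19 on the higher slides and dim on the lower ones. On the brighter CDH2 probe the differences from control were 0.01 to 0.49 (log2) with IL-1β and -0.06 to 0.29 with Empa. The second probe was at least 2.03-fold (HK-2 replicate 1), 1.35-fold (RPTEC/TERT1 replicate 1) and at least 1.39-fold (RPTEC/TERT1 replicate 2) higher with IL-1β and at 0.91 of control on the HK-2 replicate 2 slide, with a mean of 0.45 (log2) against 0.16 on the brighter one.

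K-cadherin (CDH6) followed CDH2 in its level across the slides but not in its response, since it was lower on all 4 slides with IL-1β and also on all 4 with Empa. Control levels were -3.25, 2.30, 3.12 and -3.23, with 82.8-fold between the lowest and the highest. IL-1β levels were -5.14, 0.66, 0.95 and -5.05, of which the first and the last were dim. Empa levels were -3.66, 1.63, 1.84 and -4.35, each between the control and the IL-1β level of its slide. IL-1β left 0.222 of the control signal on the RPTEC/TERT1 replicate 1 slide and 0.321 on the HK-2 replicate 2 slide, and where the IL-1β array was dim CDH6 was at least 3.72-fold (HK-2 replicate 1) and at least 3.51-fold lower (RPTEC/TERT1 replicate 2). The Empa arrays were at 0.752, 0.629, 0.411 and 0.462 of control.

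Vimentin (VIM) was bright on all arrays and saturated on 3, and its response to IL-1β could be measured on only 2 slides. Control levels were 7.02, 6.21, 5.71 and 7.54. The IL-1β levels were 6.96, 6.53, 5.95 and 7.45 and the Empa levels 6.92, 6.27, 5.73 and 7.18. The spot was saturated on 3 arrays, the IL-1β and Empa arrays of RPTEC/TERT1 replicate 2 and the IL-1β array of HK-2 replicate 2, so those levels are lower bounds. VIM was higher in the controls that had CDH1 than in those that did not, with 3.57-fold between the extremes. On the 2 slides with an unsaturated IL-1β array the difference from control was -0.06 (HK-2 replicate 1) and 0.24 (RPTEC/TERT1 replicate 1) on the log2 scale. On the HK-2 replicate 2 slide VIM was at least 1.25-fold higher, and on the RPTEC/TERT1 replicate 2 slide the sign is not known.

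**Figure D1:**
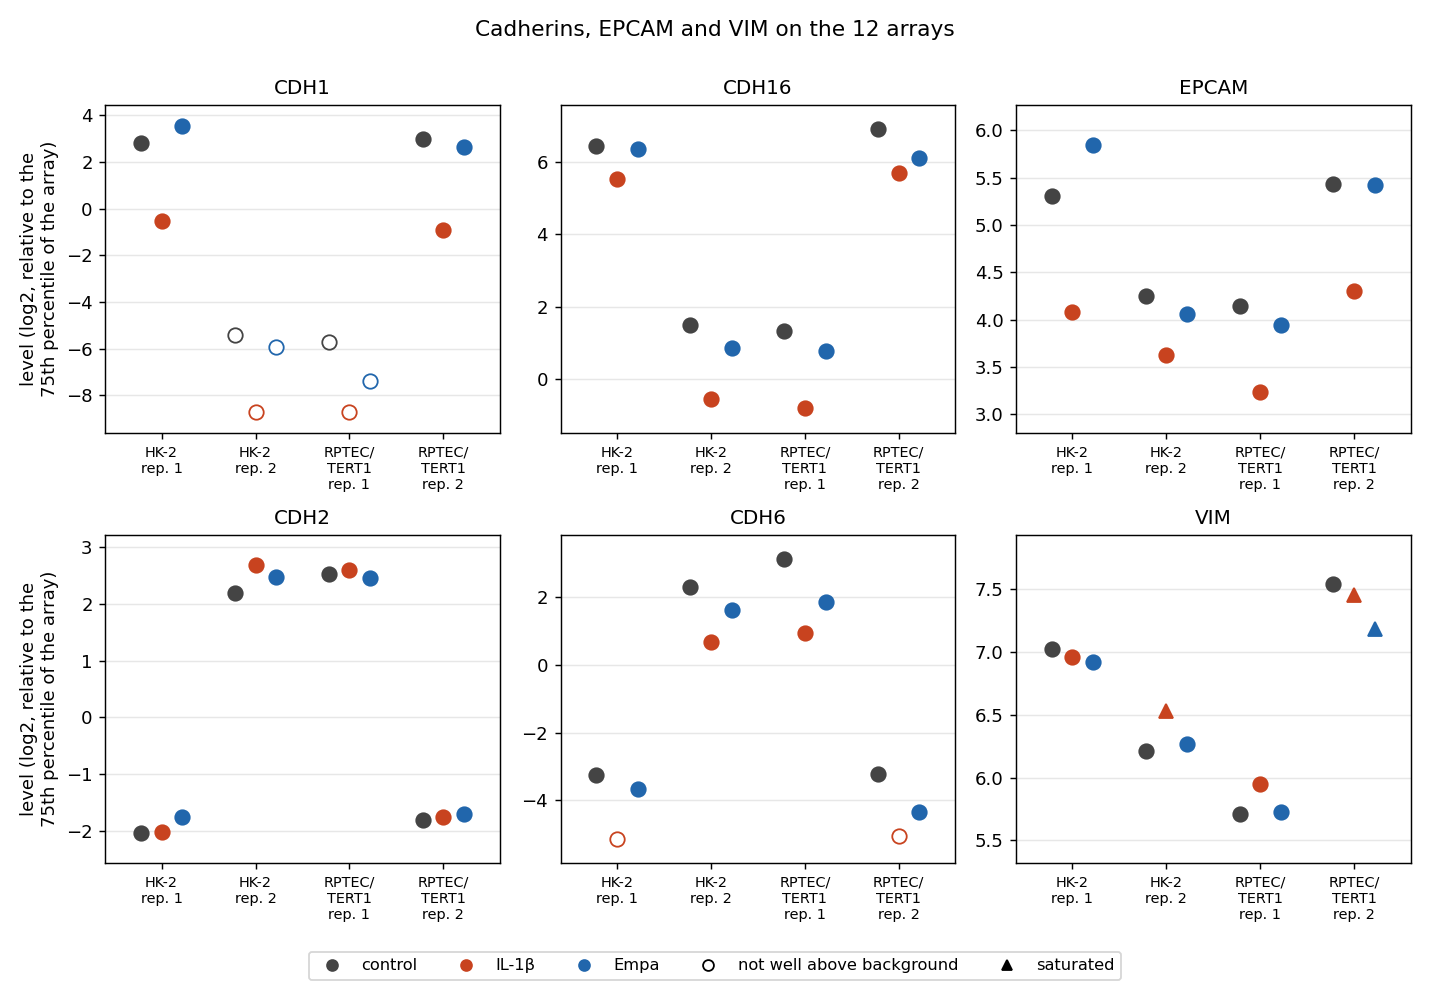
Levels of CDH1, CDH16, EPCAM, CDH2, CDH6 and VIM (y axis, log2 relative to the 75th percentile of the array, with its own range for each gene) on the 4 slides (x axis), with control, IL-1β and Empa as separate points of 1 array each. CDH1 and CDH16 were high on the slides of RPTEC/TERT1 replicate 2 and HK-2 replicate 1, and CDH2 and CDH6 on the remaining slides; open points are dim and triangles saturated.

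Of the transcription factors, ZEB1, a zinc finger repressor of CDH1, was higher with IL-1β on all 4 slides by both of its probes. The brighter probe had control levels of -0.72, -1.46, -0.95 and -0.32 and IL-1β levels of 1.05, 0.11, -0.05 and 0.93. The lowest IL-1β level, -0.05, was above the highest control level, -0.32. The dimmer probe had control levels of -3.83, -3.02, -4.21 and -2.63 and IL-1β levels of -2.10, -1.83, -3.31 and -0.59, which overlap across slides but not within one. IL-1β raised the signal 3.43-, 2.97-, 1.87- and 2.38-fold by the brighter probe and 3.32-, 2.29-, 1.87- and 4.09-fold by the dimmer one. The control levels differed by at most 2.21-fold on the brighter probe and 2.99-fold on the dimmer one. The controls with CDH1 were the 2 highest on the brighter probe, but not on the dimmer one. With Empa the brighter probe was at 2, 1.34, 0.889 and 1.07 of control, and the dimmer one at 1.1, 1.18, 1.07 and 1.67.

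SNAI1 (Snail) stayed close to its control. Its control levels were -0.84, -0.32, -0.65 and -0.50, its IL-1β levels -0.65, -0.11, -0.52 and 0.05, and its Empa levels -0.91, -0.64, -0.72 and -1.22. It was above control with IL-1β on each slide, by 0.13 to 0.55 (log2), and below control with Empa on each, by 0.07 to 0.73, but the ranges of the 3 treatments overlap.

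SNAI2 (Slug) showed opposite signs on different slides. Control levels were -4.71, -2.06, -1.25 and -5.02, and the first and the last were dim. With IL-1β the levels were -3.20, -2.23, -1.96 and -3.50, all well above background. On the slides with a dim control SNAI2 was at least 2.84-fold and at least 2.87-fold higher with IL-1β, whereas it was at 0.61 of control on the RPTEC/TERT1 replicate 1 slide and at 0.89 on the HK-2 replicate 2 slide. The slides with the lower SNAI2 level are those with the higher CDH1. Each title has 1 slide of either sign, and the difference between the signs was not tested.

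TWIST1, a basic helix-loop-helix factor, was near the detection limit. The probe at chr7:19156462-19156521 was well above background on the 6 arrays of HK-2 replicate 2, at -2.94, -3.27 and -3.07 for control, IL-1β and Empa, and of RPTEC/TERT1 replicate 1, at -3.92, -3.61 and -3.96. It was dim on the other 6 arrays. The probe at chr7:19155645-19155704 was well above background on 3 of 12 arrays only, namely both HK-2 IL-1β arrays and the Empa array of HK-2 replicate 2, and it is the one that entered the fit, through the HK-2 IL-1β group. The fit's values for TWIST1 therefore rest on arrays at or near the floor, and the 2 probes do not show the same pattern.

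**Figure D2:**
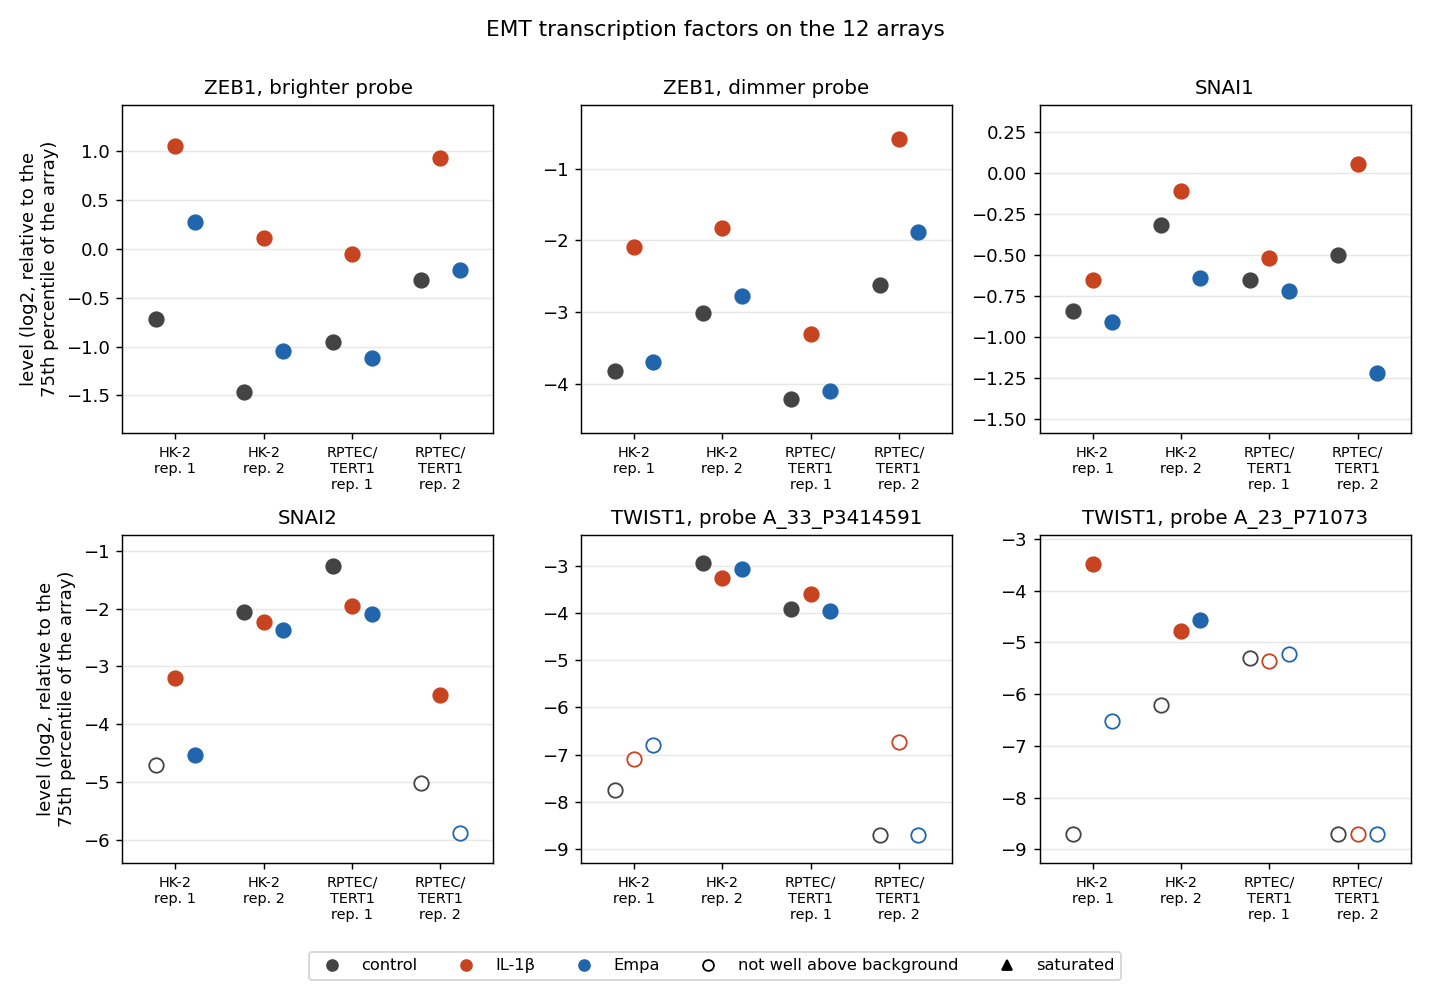
Levels of the ZEB1, SNAI1, SNAI2 and TWIST1 probes (y axis, log2 relative to the 75th percentile of the array, with its own range for each probe) on the 4 slides (x axis), 1 point for each array, open where dim. Both ZEB1 probes had the IL-1β point above the control point on all 4 slides, and SNAI2 had it above the control on 2 slides and below it on 2.

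To compare each treatment with control over all arrays, limma was fitted to 15717 genes, and the 9 tested members are read from that fit. Without a block, 0 members had an adjusted p under 0.05 for IL-1β averaged over the lines, where 0.0509% of all genes passed. The unadjusted p was under 0.05 for 1 member, ZEB1, against 1199 of 15717 genes. In this fit the differences between slides count as error, and the SE was 2.51 (log2) for CDH6 and 2.43 for CDH16. With the slide, which is the replicate number of a line, as a block, 3 of 9 members passed, against 5.5% of all genes. CDH6 fell to 0.272 of control, a log2 difference of -1.88 (SE 0.18, adjusted p = 0.00518), CDH16 fell to 0.335 of control (-1.58, SE 0.27, adjusted p = 0.0228), and ZEB1 rose 2.59-fold (1.37, SE 0.18, adjusted p = 0.0114). EPCAM, at 0.509 of control, had an adjusted p of 0.0638. In a fit with the slide as a block and 1 IL-1β effect over both lines, 4 of 9 members passed, CDH6, CDH16, ZEB1 and EPCAM (adjusted p = 0.0188), against 12.4% of all genes.

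The members that did not pass had 95% intervals of different width in the fit with the slide as a block. For EPCAM the interval ran from 0.344 to 0.752 of control, below 1 before adjustment over all genes. For CDH2 the interval ran from 0.843 to 1.48 of control, and for VIM from 0.811 to 1.42, with 3 saturated values in it. For SNAI1 it ran from 0.851 to 1.71 and for SNAI2 from 0.714 to 2.94. No size is read from the fit for TWIST1 (adjusted p = 0.133), whose probe was kept through the group where it was high and whose 4 controls were all dim. Its mean IL-1β difference of 1.65 (log2) became 0.46 without the slide of HK-2 replicate 1, -0.08 after normexp background correction and 0.11 in the deposited table.

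Leaving out 1 slide at a time from the fit with 1 effect per treatment kept CDH6, CDH16 and ZEB1 past the threshold each time, and EPCAM only without the slide of HK-2 replicate 1 or HK-2 replicate 2. The size of the CDH6 difference depended on the processing, since it was -1.08 (log2) in the deposited table and -1.24 after normexp background correction, against -1.88 here, where 2 of the 4 slides give only a bound. After normexp, with the block and 1 effect per treatment, CDH6 did not pass (adjusted p = 0.0531). CDH6 entered the fit only through the control and Empa groups, where it was higher than with IL-1β. Its passes are therefore not read as a result on their own, only beside its values on the slides.

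The same signs can be counted without a test. With IL-1β, 3 of 9 tested members (CDH6, CDH16 and EPCAM) were lower than control on all 4 slides, against 24.9% of all genes, and 3 (CDH2, SNAI1 and ZEB1) were higher, against 15% of all genes. For Empa, CDH6, CDH16 and SNAI1 were lower on all 4 slides, 3 of 9 against 13.9% of all genes, and 0 members were higher, against 12.5%. With 9 genes these counts are not a result about the members, and both treatments are set against the same control arrays.

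**Figure D3:**
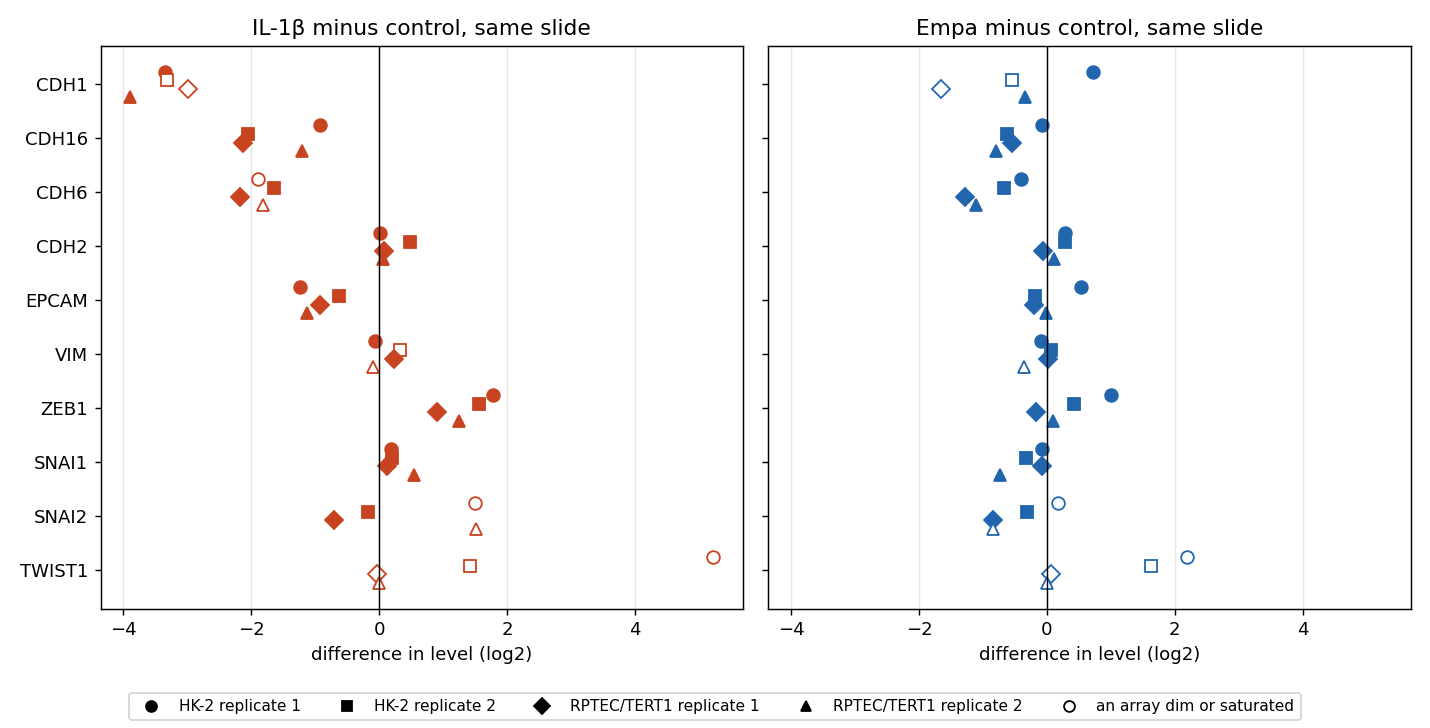
Difference in level between the IL-1β (left) or Empa (right) array and the control array of the same slide (x axis, log2) for the 10 genes (y axis), with 1 symbol for each slide and open symbols where an array was dim or saturated. With IL-1β all 4 symbols of CDH16, CDH6 and EPCAM lie below 0 and all 4 of ZEB1 above it; the CDH2 symbols lie between 0.01 and 0.49, and 2 of the 4 VIM symbols come from saturated arrays.

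With Empa, 0 of 9 members passed in limma without a block, as did 0% of all genes. None of the 9 had an unadjusted p under 0.05, against 205 of 15717 genes. With the slide as a block, again 0 members and 0% of genes passed, and with 1 effect per treatment 0 members, against 0.00636% of genes. CDH6 had the lowest p among the members, at 0.547 of control (-0.87, SE 0.18, 95% interval 0.411 to 0.728, adjusted p = 0.511 with the block). CDH16 was at 0.701 of control (interval 0.452 to 1.08), ZEB1 at 1.26 (0.942 to 1.69) and EPCAM at 1.02 (0.692 to 1.51). For CDH6 and CDH16 the Empa arrays thus lay on the same side of control as the IL-1β arrays, with a smaller difference, and no array carried both ligands.

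**Figure D4:**
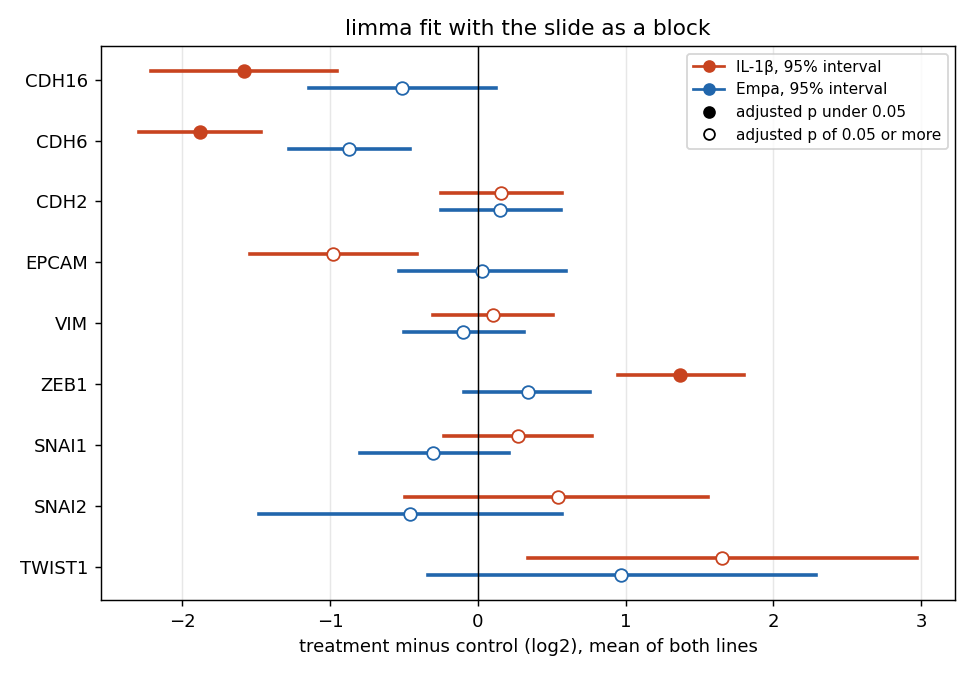
Estimates of limma with the slide as a block for the 9 tested genes (y axis), averaged over the lines for IL-1β and Empa (x axis, log2 difference from control), with 95% intervals and filled points where the adjusted p was under 0.05. CDH16 and CDH6 lie below 0 and ZEB1 above it with IL-1β, and no Empa point is filled.

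Within the titled lines, the block let 1 member pass, CDH6 with IL-1β in RPTEC/TERT1 (-1.99, SE 0.25, adjusted p = 0.0449), where 0.261% of all genes passed. In HK-2, 0 members passed, against 0.255% of genes. CDH6 (-1.77, adjusted p = 0.0503) and ZEB1 (1.67, adjusted p = 0.0577) came nearest. An unadjusted p under 0.05 was found for 5 of 9 members, against 2549 of 15717 genes. Without a block, 0 members and 0% of genes passed in either line for either ligand. ZEB1 with IL-1β in HK-2 was the 1 member with an unadjusted p under 0.05, against 591 of 15717 genes there. With the block, Empa also gave 0 members and 0% of genes in each line. The difference in response between the titled lines passed for 0 members and 0% of genes with both ligands, with or without the block. Since each title joins 1 slide from either pair of similar slides, this comparison cannot show whether those pairs respond alike. The controls titled RPTEC/TERT1 and HK-2 differed by 0.00 to 0.46 (log2) for the 9 members, with SEs of up to 3.55. In that comparison 0 members and 0% of genes passed; each title joins a slide with high and a slide with low CDH16.

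The genes around the members were described by lists, with IL-1β results from the fit with the slide as a block unless stated. Of 7 tested catenins and other cadherin partners, which link cadherins to actin, none passed in limma, against 5.5% of all genes. An unadjusted p under 0.05 was found for 1 of them, against 3667 of all 15717 genes. Their median difference was -0.07 (log2), against -0.11 over all genes. Of 4 further cadherins tested, none passed either (1 with an unadjusted p under 0.05, median -0.21), and CDH24 passed only with 1 effect per treatment (-0.81, adjusted p = 0.0276). CTNNB1, the β-catenin gene, was well above background in all 4 controls, at 1.37 to 2.20.

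Of 23 genes of the epithelial programme, 4 passed with IL-1β, all of them lower, against 5.5% of all genes passing (318 higher and 546 lower), and the median was -0.67, against -0.11 over all genes. MARVELD3, a tight junction protein, passed (adjusted p = 0.0145), but its IL-1β arrays were all dim. MARVELD3 entered the fit only through the HK-2 control group, where it was high, so its pass is not read as a result. It was at least 1.95-fold (HK-2 replicate 1), 3.09-fold (RPTEC/TERT1 replicate 1) and 12.5-fold (HK-2 replicate 2) lower, and both arrays were dim on the RPTEC/TERT1 replicate 2 slide. LLGL2, a polarity protein well above background on 10 of 12 arrays, passed with an adjusted p of 0.00591. LLGL2 entered the fit only through the control and Empa groups, where it was high, so its pass is not read as a result. It was 4.37-fold lower on the HK-2 replicate 1 slide and 3.98-fold lower on the RPTEC/TERT1 replicate 2 slide, and at least 6.38-fold and at least 11.4-fold lower on the slides of RPTEC/TERT1 replicate 1 and HK-2 replicate 2, whose IL-1β arrays were dim. The repressor of mesenchymal genes OVOL2 fell by 1.86 on the log2 scale (adjusted p = 0.0235), and the mucin MUC1 by 1.21 (adjusted p = 0.0394), both well above background on all control and IL-1β arrays. On all 4 slides, 12 of the 23 were lower than control, against 24.9% of all genes, and 1 was higher, against 15%.

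The 19 tested genes of the mesenchymal programme moved both ways, with 3 higher and 2 lower past the threshold, against 5.5% of all genes passing, and a median of 0.30, against -0.11 over all genes. NT5E, the CD73 nucleotidase, rose by 2.10 on the log2 scale (adjusted p = 0.017), and the matrix protein TNC by 0.95 (adjusted p = 0.0398). LOX, which cross-links collagen (adjusted p = 0.0303), was 44.5-fold higher on the HK-2 replicate 1 slide, 4.09-fold on HK-2 replicate 2, 3.58-fold on RPTEC/TERT1 replicate 1 and at least 43-fold on RPTEC/TERT1 replicate 2, where its control was dim. The smooth muscle gene ACTA2 passed as lower (adjusted p = 0.0274) but was measurable only on the slides of RPTEC/TERT1 replicate 2 and HK-2 replicate 1, where it was 3.89-fold and 3.69-fold lower. On the remaining slides its control and IL-1β arrays were dim, and they count in this p at their dim values. ACTA2 entered the fit through neither a control nor an IL-1β group, so its pass is not read as a result. CNN1, another smooth muscle gene (adjusted p = 0.0481), was 1.92-fold lower on HK-2 replicate 2 and 2.67-fold on RPTEC/TERT1 replicate 1. It was at least 4.24-fold and at least 6.21-fold lower on the HK-2 replicate 1 and RPTEC/TERT1 replicate 2 slides, with dim IL-1β arrays. CNN1 entered the fit only through the control groups, where it was high, so its pass is not read as a result.

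Of 8 other EMT transcription factors, 1 passed as higher and 1 as lower, against 5.5% of all genes passing (318 higher and 546 lower). The median was -0.35, against -0.11 over all genes. ZEB2, the closest relative of ZEB1, had an adjusted p just under the threshold (0.05 after rounding). ZEB2 entered the fit only through the IL-1β groups, where it was high, so its pass is not read as a result. It was 2.4-fold higher on RPTEC/TERT1 replicate 1 and 3.53-fold on HK-2 replicate 2, and at least 9.04-fold and at least 6.12-fold higher on the HK-2 replicate 1 and RPTEC/TERT1 replicate 2 slides, whose controls were dim. SOX4 fell by 1.14 (adjusted p = 0.021). With Empa, none of the genes in these 5 lists passed in limma, and 0% of all genes did. An unadjusted p under 0.05 was found for 6 of 19 mesenchymal and 2 of 23 epithelial genes, against 1444 of all 15717 genes. It was also found for 1 of the 8 transcription factors, 0 of 7 catenins and partners and 0 of 4 further cadherins. The medians lay between -0.16 and 0.13, against -0.02 over all genes.

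The genes with the most similar levels over the 12 arrays are given as a description, since the arrays share 4 slides and the slides set most of each pattern. For CDH1 they were ZNF618, SIAE and TMEM37 (Pearson's r of 0.995 to 0.996), for CDH16 PRODH, PCCA and CFI (0.995 to 0.997), for CDH2 GPAT2, NUP155 and CDC7 (0.995 each) and for CDH6 TMEM180, LOXL3 and KIAA0408 (0.991 to 0.992). For EPCAM they were TMEM25, FAM66C and FAXDC2 (0.988 to 0.99) and for VIM ATP5J, FKBP2 and WWC1 (0.973 to 0.977). For ZEB1 they were WIPI1, STOML1 and PCID2 (0.97 to 0.986), and SNAI1 had the lowest values, with FOSL2, BX445743 and EPHB2 at 0.824 to 0.831. Among the members, CDH1 and CDH16 had r = 0.98, CDH2 and CDH6 0.96, and CDH2 and CDH16 -0.98, whereas ZEB1 and CDH1 had 0.33.

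RefSeq start sites on GRCh38.p14 were at hand for 3 of the 10 genes, VIM, ZEB1 and CDH2. The 250 bases before each start were searched for the E-box CACCTG, the letters that ZEB1 and SNAI factors bind, on both strands (CAGGTG on the other). It was present before 2 of 7 ZEB1 starts and before none of the 2 CDH2 starts and the 1 VIM start, against 17.5% of 35116 such windows. The window before the first ZEB1 start, chr10:31318167-31318416 on the plus strand, is shown because ZEB1 was the factor that rose, with the match in capitals:
ZEB1: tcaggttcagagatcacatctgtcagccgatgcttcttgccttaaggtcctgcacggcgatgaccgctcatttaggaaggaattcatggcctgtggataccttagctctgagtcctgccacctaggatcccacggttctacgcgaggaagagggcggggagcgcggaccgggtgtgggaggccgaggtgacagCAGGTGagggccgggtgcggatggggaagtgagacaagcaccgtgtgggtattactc
A match describes the letters of the window only.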

How the data were processed

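The authors hybridized Cy3-labelled RNA to one-color Agilent 4x44K arrays and deposited the Feature Extraction files, whose intensities are background-subtracted and, per the file headers, not normalized between arrays. A further deposited table holds log2 values that the authors call quantile-normalized, and it served as an alternative. The normalization behind the study's own lists is not given in the sources used here.

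An array has 44495 spots, of which 1377 are controls and the remaining 43118 represent 34127 probes. Spots marked as outliers (1.06% to 1.61% of an array) were left out, spots of a probe were averaged, and signals were scaled to the 75th percentile (298 to 765 signal units), raised to at least 1 unit and put on the log2 scale, for 33483 probes with a value on all 12 arrays. Between 52.7% and 63.1% of probes were well above background. A fold against a dim array was computed against the higher of its own signal and the lowest signal marked well above background on that array, and is given as "at least".

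Each gene entered the fit by its brightest probe, among probes with that mark on the 2 arrays of 1 or more groups. limma 3.58.1 in R 4.3.3 was run on 12 arrays and 6 groups with Benjamini-Hochberg adjustment over all genes and a threshold of 0.05. On each slide, the arrays' deviations from their group means correlated with r of 0.592 to 0.906 over 15324 probes, so the arrays of a slide deviated alike. This correlation cannot show that cultures were paired, because the 2 replicates of a title differed under each treatment. Fits with the slide as a block are given beside the fit without it. The replicate 1 slides and the replicate 2 slides were scanned on 2 different days. The fits with and without the slide as a block were run on simulated arrays with a common IL-1β effect. A minimum recovery of changed genes was required only of the fit with 1 effect per treatment. That fit makes the same assumption. A limit on false Empa calls was set for all of these fits. The named genes are all members, the 3 genes most similar to CDH1, to CDH6 and to each member that was never dim, and of each list at most 4 genes past the threshold in each direction. CDH24, CTNNB1 and single markers were picked with their values in view. The members and lists were chosen with earlier results of these data known.

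Alternatives were quantile normalization, normexp (offset 50), the deposited table, dim probes kept, only probes that were never dim, outlier spots kept, a floor of 5 units, the scan day as a block, the slide as a block, other probes, and each array or slide left out. The alternatives that join the block with another choice were added after the data were examined. Figures were drawn with matplotlib 3.10.9.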

Additional observations from a re-analysis of the deposited data

Results flagged for a closer look

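The IL-1β difference of CDH2 on the slide of HK-2 replicate 2 was 0.49 (log2), while the other 3 slides gave 0.01 to 0.08. The gap to the nearest slide took up 0.871 of the range of the 4 slides. The second CDH2 probe gave -0.14 on this slide. Chance alone marks about 1 in 20 such sets of 4 values, and 20 sets were examined.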

How the results depend on the processing

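For IL-1β averaged over the lines, 0 members passed without a block, and the same held under the alternatives without the slide as a block, including each array left out (0 to 0). With the replicate block 3 members passed, with the replicate block and 1 effect per treatment 4, with the replicate block and no filter 2 (CDH6 and ZEB1), and with 1 effect per treatment 4 after quantile normalization, 3 after normexp (CDH6 did not pass) and 4 in the deposited table. With 1 effect per treatment and a slide left out the count was 3 to 4. For IL-1β in RPTEC/TERT1 the replicate block gave 1 member in place of 0. In the other comparisons the count stayed at 0 under all alternatives run.

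The mean IL-1β difference over the slides moved by more than its SD for CDH1 (-3.39; -1.98 after normexp, -1.64 in the deposited table, -2.23 with a floor of 5 units), for CDH6 (-1.88; -1.24 and -1.08) and for VIM after quantile normalization (0.10; 0.44). For Empa it moved for CDH6 after normexp (-0.87; -0.37) and for VIM after quantile normalization, where it changed sign (-0.10; 0.15). The second CDH2 probe gave 0.45 for IL-1β and -0.02 for Empa. The causes were not tested, except that a higher floor shrinks the dim slides of CDH1 by construction. No member that passed in any fit changed sign. Low signal limits CDH1 on 6 arrays, CDH6 on 2 IL-1β arrays, TWIST1 and SNAI2, and saturation limits VIM on 3.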
